A study of Mus musculus with 2 samples.

Results

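Mir191 and Mir425 are neighbouring microRNA genes of mouse chromosome 9, and they are the mouse members of the mir-191/425 cluster. Both were found by name among the 2202 miRNA genes of the deposited count tables, so 2 of 2202 genes are described here. MicroRNA-seq, which sequences small RNA (here below 30 nucleotides) after adapter ligation, was run on the adrenal gland of adult male mice aged 8 to 10 months. The strain label is 5xFAD/CAST. 5xFAD mice are an Alzheimer's disease model with transgenes driven by the neuronal Thy1 promoter, and CAST is an inbred strain derived from wild mice; the labels do not say whether these animals carried the transgenes. There was 1 group with 2 libraries, labelled biological replicates 1 and 2, whose donor record was the same, so their spread may be partly technical.

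A microRNA gene is transcribed as part of a longer primary transcript, from which Drosha and then Dicer cut a hairpin and a short duplex. Either arm of the duplex can be loaded into an Argonaute protein, and bases 2 to 8 of the loaded arm, the seed, pair with target mRNAs. miR-191 and miR-425 are found in many tissues, and miR-191 is widely used as a reference for quantitative PCR of microRNAs.

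The mature arms are shown because the seeds, in capitals, set which mRNAs each gene product can pair with. Sequences are those of RefSeq on GRCm38.p6, plus strand, written 5′ to 3′, and both genes had entries.
mmu-miR-191-5p: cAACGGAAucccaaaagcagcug
mmu-miR-191-3p: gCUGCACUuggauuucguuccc
mmu-miR-425-5p: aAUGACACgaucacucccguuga
mmu-miR-425-3p: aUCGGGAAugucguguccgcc

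The 4 seeds differ from each other, so the cluster encodes separate seed families rather than copies of a single one. Among 1738 mature entries of RefSeq, no other gene had an arm with the seed of miR-191-5p, miR-191-3p or miR-425-3p. The seed of miR-425-5p was shared with 1 other arm, mmu-miR-489-3p. Mir489 had 0 sense reads in both libraries, which allows up to 0.442 CPM in replicate 1 and 0.973 CPM in replicate 2. CPM is the sense reads of a gene per 1000000 sense reads of all miRNA genes, and these limits correspond to 3 reads and cover counting error only.

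The hairpins are printed whole, with the 5p arm and the 3p arm in capitals, because the deposited counts belong to the hairpin and do not separate the arms.
Mir191: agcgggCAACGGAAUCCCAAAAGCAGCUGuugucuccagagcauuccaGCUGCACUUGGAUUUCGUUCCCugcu
Mir425: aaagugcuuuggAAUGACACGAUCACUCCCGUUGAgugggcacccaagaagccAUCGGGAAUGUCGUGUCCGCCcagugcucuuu

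The hairpins were 74 bases (Mir191) and 85 bases (Mir425) long and both had a GC content of 54.1%. The longest run of bases they had in common was 5. Neither hairpin shared 20 bases with a hairpin at another locus, in contrast to 1084 of the 2202 genes. Among the 280 genes with a mean of at least 10 CPM, 68 shared 20 bases, so most were like the pair in this respect. Each mature arm matched in sense only its own gene and 4833445I07Rik among 141767 annotated transcripts. The predicted fold of Mir191 was the more stable, at −35 kcal/mol against −31.7 kcal/mol for Mir425, which is −0.473 and −0.373 kcal/mol per base. The median of the 280 genes with a mean of at least 10 CPM was −0.433 per base. Of these genes, 86 were predicted to fold more stably per base than Mir191 and 232 more stably than Mir425. These are predictions from sequence and were not measured.

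In GENCODE M21 (GRCm38), Mir191 (ENSMUSG00000105497.1) lies at chr9:108568319-108568392 and Mir425 (ENSMUSG00000065579.1) at chr9:108568777-108568861, both on the plus strand with 384 bases between them. Their annotated host in that release is the noncoding gene 4833445I07Rik, at chr9:108567533-108569174. Both hairpins lie inside the single exon of its transcript 4833445I07Rik-201. In the spliced transcript 4833445I07Rik-202 Mir191 lies in the intron, and Mir425 starts 2 bases past the transcript's end.

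The pair is usually described as intronic to Dalrd3, and the annotations differ on this point. The GENCODE M21 gene Dalrd3 begins at 108569886, 1024 bases beyond the end of Mir425, so neither hairpin lies in it. The RefSeq gene Dalrd3 spans 108567484 to 108572773 and contains both hairpins. Dalrd3 encodes a protein needed for methylation of certain arginine transfer RNAs. Small RNA counts carry no reads of the primary transcript, so which transcript produced the hairpins was not tested.

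**Figure D1:**
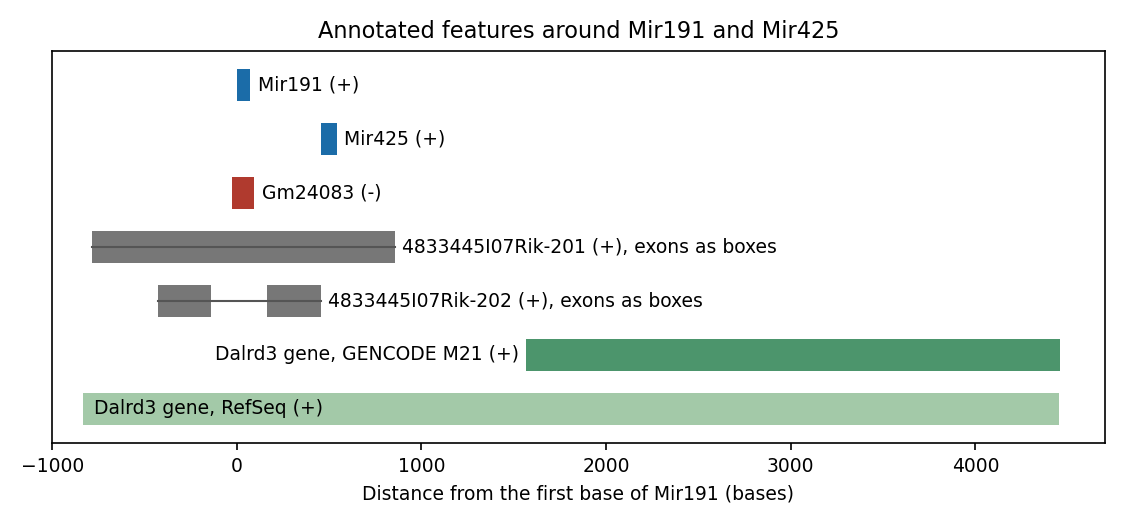
Map of the annotated features around the pair, with distance from the first base of Mir191 in bases on the horizontal axis; boxes are genes or exons and the sign after a name is its strand. Both hairpins lie in 4833445I07Rik-201 and in the RefSeq span of Dalrd3, and before the GENCODE M21 start of Dalrd3, while Gm24083 covers Mir191 on the minus strand and ends before Mir425.

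Replicate 1 had 13209343 reads and replicate 2 had 6482170, of which 6783227 and 3084602 were sense reads of miRNA genes. Of the marker lists, that of adrenal chromaffin cells (Mir375, Mir7-1, Mir7-2 and Mir7b) summed to 63615 and 87243 CPM, with none of its 4 genes at 0. The endothelial Mir126a stood at 92610 and 52519 CPM. The erythroid list summed to 5542 and 2136 CPM and the leukocyte list to 610 and 693 CPM. Mir378a, listed for adipose tissue, stood at 3142 and 3542 CPM, above the leukocyte list in both libraries. As counted, the lists for liver, kidney and striated muscle were lower than each of these. The liver gene Mir122 stood at 257 and 57.7 CPM, and the kidney list at 45.3 and 39.6 CPM with Mir194-1 at 0. The striated muscle list summed to 3.69 and 3.57 CPM, with 4 of its 5 genes at 0. Those 4 were Mir1a-1, Mir1a-2, Mir133a-1 and Mir133a-2, so the sum was that of Mir206. By name, they and Mir194-1 are numbered copies, and reads that map to more than 1 locus were not counted for any gene. Their 0 may come from such lost reads and does not show that the microRNA was absent. Mir191 and Mir425 are on none of these lists, and the part of each cell type in their levels was not tested. In whole tissue, fewer cells of a type and less RNA per cell cannot be told apart.

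Mir191 was an abundant gene of the adrenal profile and Mir425 a moderate one. Mir191 had 49641 sense reads in replicate 1 and 23510 in replicate 2, which is 7318 CPM (Wilson 95% interval 7254 to 7383) and 7622 CPM (7525 to 7719). Its mean was 7470 ± 215 CPM (SD, n = 2). It ranked 24 of 666 genes with reads in replicate 1 and 22 of 586 in replicate 2. Genes with copies at other loci lose multimapping reads, so these ranks are of reads as counted. Among genes sharing no 20 bases with another hairpin, Mir191 ranked 21.

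Mir425 had 4092 and 1883 sense reads, or 603 CPM (585 to 622) and 610 CPM (584 to 639) in replicates 1 and 2. Its mean was 607 ± 5.09 CPM (SD, n = 2), and it ranked 87 and 92. Among genes sharing no 20 bases with another hairpin, Mir425 ranked 74. As scaled by CPM, the replicate SD was 2.87% of the mean for Mir191 and 0.839% for Mir425. Summed, the cluster made up 0.808% ± 0.0220 of miRNA reads.

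**Figure D2:**
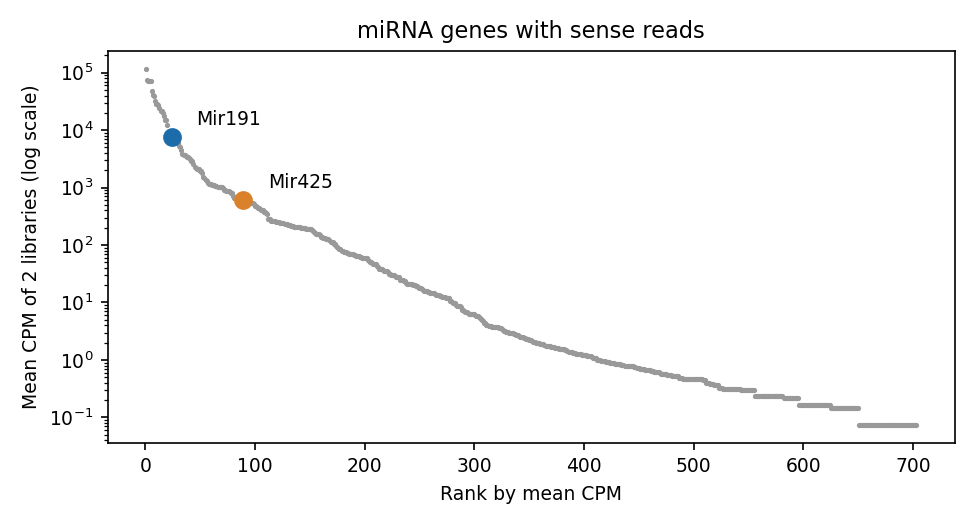
Mean CPM of the 2 libraries on a log scale against rank, for every miRNA gene with sense reads; each small point is 1 gene. Mir191 stands at 7470 CPM, rank 24, and Mir425 at 607 CPM, rank 89.

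Genes of similar level were found by the distance of log2(CPM + 1) over both libraries, among 1117 genes sharing no 20 bases with another hairpin. The nearest to Mir191 were Mir30d of the mir-30 family at 6894 ± 351 CPM, Mir99b of the Mir99b, Mirlet7e and Mir125a cluster at 8088 ± 814 CPM, and Mir151 at 6511 ± 93.4 CPM. Mir191 was above Mir151 in both libraries by more than the replicate difference of either gene, and its order against Mir30d and Mir99b was within that spread. The nearest to Mir425 were the smooth muscle gene Mir145a at 631 ± 15.1 CPM, Mir672 at 645 ± 26.8 CPM and Mir485 of the Dlk1-Dio3 region at 559 ± 13.4 CPM. Mir425 was above Mir485 beyond the replicate spread and was not separated from Mir145a or Mir672. In the order of all genes by mean CPM, Mir425 stood just below Mir145a and just above Mir214. Mir214 had 355 and 831 CPM in replicates 1 and 2, below Mir425 in the former and above it in the latter.

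Mir191 outnumbered Mir425 to nearly the same extent in both libraries. The ratio of their reads was 12.1 in replicate 1 (exact 95% interval 11.8 to 12.5) and 12.5 in replicate 2 (11.9 to 13.1), with a mean of 12.3 ± 0.250 (SD, n = 2). Mir191 thus held 92.4% and 92.6% of the reads of the pair. A ratio within a library is free of the scaling between libraries. The ratios differed by 1.03-fold, and their reads gave p = 0.327 in Fisher's exact test (two-sided), which compares these 2 libraries and not animals. Reads were not divided by length, because the mature arms are of similar length. Both 5p arms have 23 bases, and the 3p arms have 22 (Mir191) and 21 (Mir425). The counts do not separate the arms. Per base of hairpin the mean ratio was 14.1. Ligation and amplification favour some small RNA sequences over others, so the ratio orders reads and not molecules, and this bias was not tested.

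The unequal yield of the cluster lay within the range of other neighbouring miRNA genes. Pairs of neighbours on the same strand, at most 10 kb apart, both at a mean of at least 10 CPM and sharing no 20 bases with other hairpins, numbered 51 besides Mir191 and Mir425. Of these, 29 lie on chromosome 12, so they are not independent of each other. The median fold between neighbours was 5.41, and 16 of the 51 pairs had a larger fold than Mir191 and Mir425. The largest was 178-fold, with Mir541 above Mir377, both on chromosome 12. The smallest was 1.04-fold, for Mir300 and Mir381, whose order differed between the libraries. The nearest folds were 12.7 for Mir351 over Mir503, an X-linked pair, and 13.1 for Mir369 over Mir410. The comparison depended on the filter for level. With both genes at a mean of at least 100 CPM, the median fold of the other pairs was 2.98. Of those 26 pairs, 6 had a larger fold than Mir191 and Mir425.

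Agreement between the libraries differed among pairs of similar fold. Mir351 over Mir503 was 15.6 in replicate 1 and 10.3 in replicate 2, and Mir369 over Mir410 was 12.3 and 13.9. For Mir191 over Mir425 the log2 ratio of replicate 2 minus that of replicate 1 was 0.042. The median absolute value of this difference over the 51 other pairs was 0.36, with a range of 0.0047 to 1.75, and 6 of them had a smaller one. In 48 of the 51 pairs, the same gene was higher in both libraries.

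**Figure D3:**
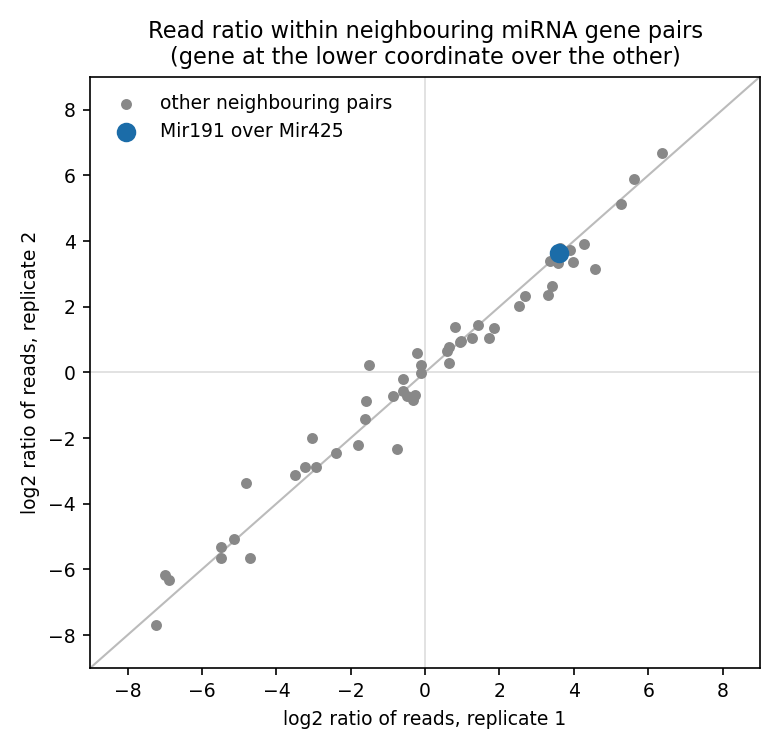
Log2 ratio of reads within each pair of neighbouring miRNA genes, replicate 1 on the horizontal axis and replicate 2 on the vertical axis, as the gene at the lower coordinate over the other; the line marks equal ratios. Mir191 over Mir425, the large point, lies at 3.60 and 3.64, next to the line, with 51 other pairs as small points.

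Between the libraries, neither gene differed by the call used here. A call needs a change of 2-fold or more in either direction, which is 1 in log2, together with a Benjamini-Hochberg adjusted p under 0.05 when reads are compared by Fisher's exact test. The call passed 30 of the 280 genes tested, a background of 10.7%, and 0 of the 2 members. For Mir191 the log2 difference of replicate 2 minus replicate 1 was 0.059 (exact 95% interval 0.036 to 0.081), with an adjusted p of 6.2e-07 in Fisher's exact test. For Mir425 it was 0.017 (−0.062 to 0.096), with an adjusted p of 0.733 in the same test. Both intervals and the test cover counting error only, and not further spread between libraries. An adjusted p under 0.05 was reached by 194 of the 280 genes, or 69.3%, so that of Mir191, whose difference was 1.04-fold, is what most genes showed. As scaled by CPM, 31 of the 280 genes had a smaller absolute difference than Mir191 and 6 a smaller one than Mir425, against a median of 0.28. The 280 genes were not matched to the pair in level, and counting error is larger for genes with fewer reads.

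The direction of these small differences, their order and the p of Mir425 depended on scaling. With TMM factors they were −0.043 for Mir191 and −0.085 for Mir425, and with DESeq2 size factors −0.078 and −0.12. The DESeq2 factors of replicates 1 and 2 were 1.414 and 0.7071, in the sense column and in that for both strands. Such factors are medians over genes with reads in both libraries, here with low counts included, and may be coarse. By Fisher's exact test, Mir425 had an adjusted p of 0.052 with TMM, 0.0048 with DESeq2 factors and 0.030 when scaled to all reads in the tables. Mir191 had 0.00028, 1.5e-11 and 1.3e-05 in the same order. The genes with a smaller absolute difference then numbered 24 for Mir191 and 42 for Mir425 with TMM, and 48 and 64 with DESeq2 factors, of 280. With both of these Mir191 was the closer of the pair to 0. These factors moved the median of all tested genes by −0.10 and −0.14 in log2. Relative to that median, Mir191 stood at 0.047 with CPM, 0.046 with TMM and 0.046 with DESeq2 factors, and Mir425 at 0.0052, 0.0045 and 0.0043. These values are near equal by construction, because a scaling factor shifts all genes by nearly the same amount in log2. They are therefore no test of the scaling.

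Mir191 and Mir425 were compared with other miRNAs in common use as quantitative PCR references. The list named 26 genes, 25 were found by symbol in the table, and 23 reached a mean of 10 CPM and were tested. In absolute replicate difference, counted from the smallest of these 23, Mir191 ranked 4 with CPM, 3 with TMM and 6 with DESeq2 factors, and Mir425 ranked 2, 6 and 9. With CPM the median absolute difference was 0.20 over the list and 0.28 over all 280 genes. The list and the 280 genes were not matched for level, and genes with fewer reads have larger counting error. How far level accounts for the gap was not tested. On the list, the smallest absolute difference with CPM was that of Mir16-1, at 0.014, with 1203 and 1215 CPM in replicates 1 and 2. By level as counted, Mirlet7i at 40266 CPM was the only listed gene above Mir191. Listed genes that share 20 bases with another hairpin lose multimapping reads, so their levels may be too low for this comparison.

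The list had 1 gene called, Mir26a-1, at 3.54 and 20.4 CPM in replicates 1 and 2 and a log2 difference of 2.24. Mir26a-1 and Mir16-1 are among 10 of the 23 genes that share 20 bases with another hairpin, whose multimapping reads were assigned to no gene. Over the 13 genes without such copies, Mir191 and Mir425 included, 0 were called and the median absolute difference was 0.16. With 1 tissue and 2 libraries, the values show how close these libraries were and not how stable a gene is across conditions.

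**Figure D4:**
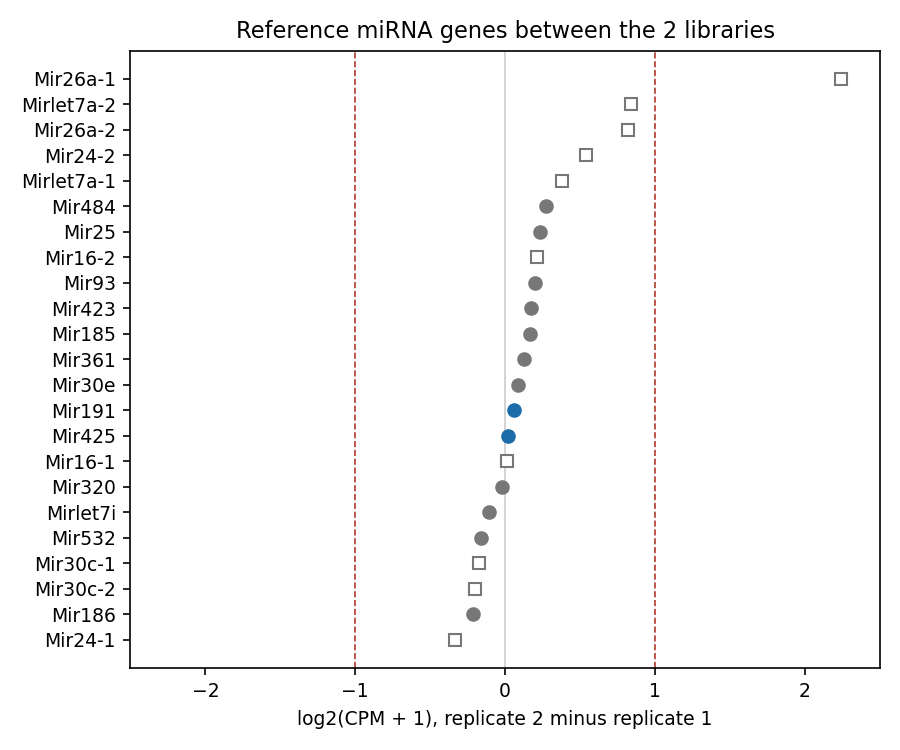
Log2(CPM + 1) of replicate 2 minus replicate 1 for the 23 tested reference miRNA genes; blue points are Mir191 and Mir425, open squares share 20 bases with another hairpin, and dashed lines mark a difference of 1. With CPM scaling Mir425 lies at 0.017 and Mir191 at 0.059, and Mir26a-1 at 2.24 is the single gene beyond a dashed line.

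The level of Mir191 depended on which count column was read, whereas Mir425 had the same reads in the sense column and in that for both strands. Each table has a column that ignores strand, a column of sense reads and a column of antisense reads. In the column for both strands, Mir191 had 0 reads in each library, against 49641 and 23510 in the sense column. Mir425 kept its 4092 and 1883 reads there, as no annotated miRNA gene overlaps it on the other strand.

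The annotation places a further miRNA gene, Gm24083 (ENSMUSG00000092915.1), at chr9:108568295-108568414 on the minus strand. It covers Mir191 with 24 bases to spare on the side of lower coordinates and 22 on the other, and it ends 362 bases before Mir425. A read counted without regard to strand then lies in Mir191 and Gm24083 alike and is set aside as ambiguous. On its own strand Gm24083 had 0 reads in both libraries, so Mir191 was at least 16547-fold higher in replicate 1 and at least 7837-fold higher in replicate 2, with 3 reads per library as the floor. The opposite-strand column gave Gm24083 the same 49641 and 23510 reads, and it gave Mir191 0.

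Reads of Mir191 made up 5.68% and 8.57% of all ambiguous reads of replicates 1 and 2. By reads lost in the column for both strands Mir191 ranked 3 in each library, after Mir126a and Mirlet7e. Of 379 genes with at least 10 sense reads in replicate 1, 23 had 0 reads in the column for both strands, and 24 of 330 in replicate 2. All of these genes had an annotated miRNA gene on the other strand, as 64 of the 2202 genes do. From the column for both strands the order of the cluster would be turned, with Mir425 at 692 and 670 CPM of that column's own total and Mir191 at 0.

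**Figure D5:**
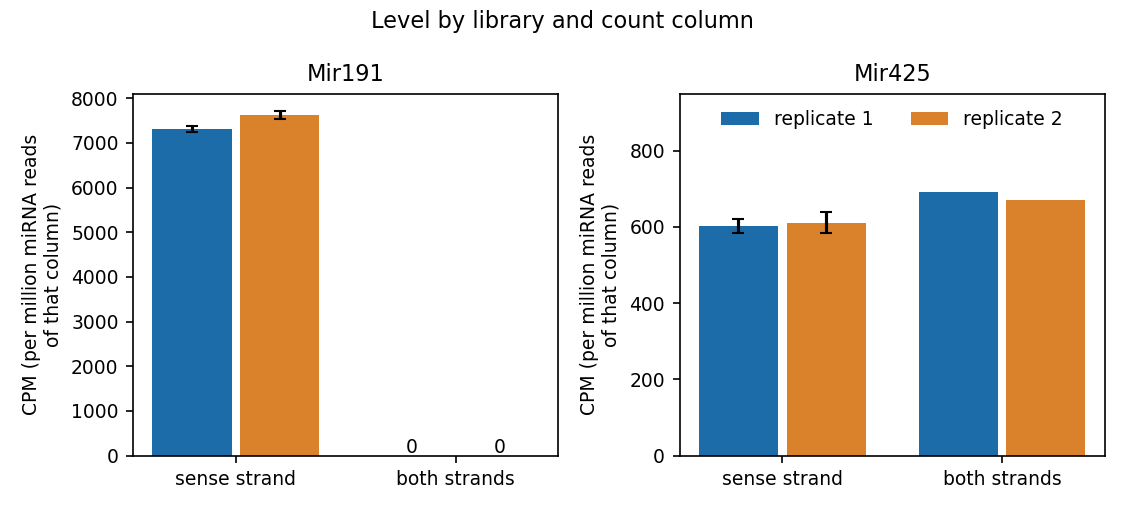
CPM of Mir191 and Mir425 in each library, from the sense column and from the column for both strands, each scaled to its own miRNA total; bars are single libraries and error bars are Wilson 95% counting intervals, drawn for the sense column. Mir191 is at 7318 and 7622 CPM in the sense column and at 0 in the other, and Mir425 is at 603 and 610 CPM and at 692 and 670 CPM.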

How the data were processed

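The authors deposited, for each of 2 libraries of 1 group, raw read counts per miRNA gene in 3 columns without a header. Per the text deposited beside the tables, the assembly was mm10 and the annotation GENCODE M21. For aligner and trimming, the sources used here give nothing. The layout matches the gene counts of STAR, and column 3 was taken as sense from that layout. Multimapping reads, 30.3% and 32.1% of the reads in the tables, were assigned to no gene. A CAST variant in a mature sequence could lower a count.

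All 2202 identifiers matched GENCODE M21. Sense counts were scaled to 1000000 miRNA reads, with mapping lines left out. Fisher's exact test with Benjamini-Hochberg adjustment ran over the 280 genes that averaged 10 CPM or more, with a pseudocount of 1 in log2 differences. The step was tested on simulated counts that held counting error only. No further spread between libraries was simulated, so that test does not cover such spread. SciPy 1.17.1, edgeR 4.0.16 (TMM), DESeq2 1.42.0 (size factors) and RNAfold 2.7.2 were used.

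The members and lists were chosen with earlier results of these data known. Named besides the members were the 3 genes nearest in level, the pairs of highest, lowest and 2 nearest ratios, the listed reference genes of smallest and largest difference or called, and any gene sharing a seed. Alternatives covered scaling, total, strand column, pseudocount, filters, pair distance and single libraries.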

Additional observations from a re-analysis of the deposited data

How the results depend on the processing

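With 2 libraries, no spread between animals could be told from technical spread. No paired analysis was possible because there is 1 group. Scaled to all reads in the tables, Mir191 was at 3692 and Mir425 at 300.1 CPM, and to a total without genes sharing 20 bases at 8601 and 698.6 CPM. With the column for both strands they were at 0 and 681 CPM, the ratio of Mir191 to Mir425 was 0, and their ranks were 680 and 80, since reads under Gm24083 are set aside; a replicate difference of Mir191 then had no value. Among genes without shared bases their ranks were 21 and 74. Leaving out each library gave levels of 7318 to 7622 and 603 to 610 CPM, ratios of 12.1 to 12.5, and ranks of 22 to 24 and 87 to 92. The replicate difference of Mir191 turned to −0.043 with TMM, −0.078 with DESeq2 and −0.051 with all reads, and that of Mir425 to −0.085, −0.12 and −0.092, and to −0.047 with the column for both strands. None of these reached the limit of 1. The 30 called genes, 17 higher and 13 lower in replicate 2, became 12 and 17 with TMM, and 8 and 17 with DESeq2. They numbered 19 at a mean of at least 100 CPM and 50 with no filter beyond 1 read. The 16 of 51 pairs with a larger ratio became 29 of 79 with shared bases kept and 6 of 26 at 100 CPM. Without shared bases, 0 of 13 reference genes were called by Fisher's exact test.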
